A study of Mus musculus with 4 samples.

Results

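The AP-1 transcription factor subunits were examined in activated mast cells through 12 probe sets for 10 genes. The array has 22626 probe sets other than controls, and 12393 genes have a probe set of their own. Members were the probe sets whose only gene symbol in the platform annotation was Fos, Fosb, Fosl1, Fosl2, Jun, Junb, Jund, Atf3, Maff or Mafk. Jun and Fosl1 had 2 probe sets each, called here the brighter and the dimmer by mean intensity, and the other genes 1. The cells were mouse bone marrow-derived mast cells, of which 2 cultures were Pac1-/- and 2 were wild-type (Pac1+/+). Pac1 is the protein of Dusp2, a dual-specificity phosphatase of the nucleus that removes phosphate from MAP kinases. Marrow came from mice of 8 to 12 weeks and was kept in interleukin-3 (5 ng/ml) for 4 to 6 weeks. All 4 cultures had bound IgE against dinitrophenyl (100 ng/ml, 18 h) and had then been activated through the IgE receptor with the antigen DNP-HSA (20 ng/ml) for 2 h. RNA of each culture was hybridised to 1 Affymetrix mouse 430A array, and no unstimulated culture is among these samples. How far any subunit had been induced by antigen was therefore not measured.

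AP-1 is a dimer of basic leucine zipper proteins that binds DNA at the AP-1 site and at related elements. Jun proteins pair with one another or with Fos proteins, while Fos proteins need a Jun partner. Fos, Fosb, Jun, Junb and Atf3 are immediate-early genes, transcribed within minutes of receptor activation and mostly silenced again soon after, whereas Jund is made more steadily. MAP kinases drive both steps: ERK and p38 act on the factors that switch on Fos, and JNK phosphorylates Jun protein. The small Maf proteins Maff and Mafk lack an activation domain and act with partners such as Nfe2 and Nfe2l2. In mast cells AP-1 is known as a regulator of cytokine genes downstream of the IgE receptor. The arrays measure RNA of the subunits only, not protein, phosphorylation or DNA binding.

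The upstream DNA of early subunits is shown with matches to the letters of elements that AP-1, ATF and CREB proteins can bind. Whether any of these matches is bound or acts on its gene was not measured. The lines give the 120 bases before the annotated RefSeq start (GRCm38.p6) of the Fos, Jun, Junb and Atf3 genes, whose signals spread most over the arrays among the immediate-early genes just named, and of the Maff start that holds a full cyclic AMP response element. They read 5′ to 3′ along the gene, and capitals mark a match to a searched motif.
Fos (chr12:85473770-85473889, plus strand): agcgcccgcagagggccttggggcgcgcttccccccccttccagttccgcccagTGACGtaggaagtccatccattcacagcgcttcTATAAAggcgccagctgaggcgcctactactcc
Jun (chr4:95052223-95052342, minus strand): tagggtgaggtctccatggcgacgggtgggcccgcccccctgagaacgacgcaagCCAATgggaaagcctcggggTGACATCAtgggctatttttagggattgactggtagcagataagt
Junb (chr8:84978749-84978868, minus strand): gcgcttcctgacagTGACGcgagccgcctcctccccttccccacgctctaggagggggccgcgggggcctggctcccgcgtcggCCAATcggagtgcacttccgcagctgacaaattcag
Atf3 (chr1:191183334-191183453, minus strand): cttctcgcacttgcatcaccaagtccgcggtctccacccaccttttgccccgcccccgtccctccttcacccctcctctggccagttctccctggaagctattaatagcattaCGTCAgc
Maff (chr15:79347400-79347519, plus strand): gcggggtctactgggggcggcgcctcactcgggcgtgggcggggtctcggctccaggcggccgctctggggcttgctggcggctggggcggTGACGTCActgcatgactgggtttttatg

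The RefSeq table had windows for 9 of the 10 genes, 11 in all, since Maff had 3 annotated starts. In the 250 bases before each start 6 motifs were searched on both strands, and 8 of the 11 windows held at least 1. No member window held the AP-1 site TGANTCA, which was found in 6.75% of 32851 mouse windows. Jun held TGACATCA, a variant site known to be bound by Jun and ATF2 in its own promoter, at positions -45 to -38, and so did 1 start of Maff. This variant was in 2.93% of all windows. The full element TGACGTCA was at -29 to -22 of another Maff start and in 1.55% of all windows. Its short core TGACG, which the full element contains, was in 17.77% of all windows. Fos held it at -129 and -66, Fosb at -60, Junb at -106 and Mafk at -41. Atf3 and the Maff start with TGACATCA held it on the opposite strand, at -7 and -122. A TATA box (TATAAA, 12.37% of windows) stood at -33 of Fos, and CCAAT (33.85%) at -65 of Jun and -36 of Junb. No match in Fosl2, Jund or the remaining Maff start says only that these letters are not in the window.

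Several properties of the arrays bear on all values. Pac1-/- replicate 2 had the lowest deposited median, 24.5, against 40.6 to 49.3 on the other 3 arrays. The ratio of 3' to 5' signal of GAPDH was 1.36 and 191 on the Pac1-/- arrays, against 0.798 and 0.839 on the wild-type arrays. That of beta-actin was 293 and 54.8 in Pac1-/- cells and 109 and 1.58 in wild-type cells, for replicates 1 and 2 in turn. Of the total sum of squares over all tested probe sets, replicate number took 71.9% and genotype 17.9%. Of 12 mast cell markers, 10 had an intensity of at least 100 on all 4 arrays. Of the lists for neutrophils, basophils and eosinophils, lymphocytes and stromal cells, no gene was bright enough to test. The single Dusp2 probe set read 109 and 75.5 in Pac1-/- cells and 167 and 90.7 in wild-type cells. The genotypes thus overlapped in the signal of the targeted gene (log2 difference -0.44 ± 0.51, SE, n = 2 per genotype), and no source used here tells where its probes lie relative to the deletion. The Dusp2 probe set was bright enough to test only through its wild-type arrays, so the size of its difference is no support for a direction.

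No AP-1 gene passed the test between Pac1-/- and wild-type cells, and for Jun, Atf3 and Mafk the difference was smaller than the SD between cultures of the more variable genotype. Junb, whose protein pairs with Fos proteins and restrains Jun in many cells, was lower on both Pac1-/- arrays by a mean log2 difference of -2.22 ± 0.88 (SE, n = 2 per genotype), mainly through the replicate 2 pair, but it was bright enough to test only through its wild-type arrays. Jund was lower on both Pac1-/- arrays by a smaller amount, -0.51 ± 0.40. Jun followed the replicate number rather than the genotype on its brighter probe set, and Fos and Atf3 were each highest on wild-type replicate 1 and lowest on wild-type replicate 2. Fosl1 and Maff gave little or no signal.

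**Figure D1:**
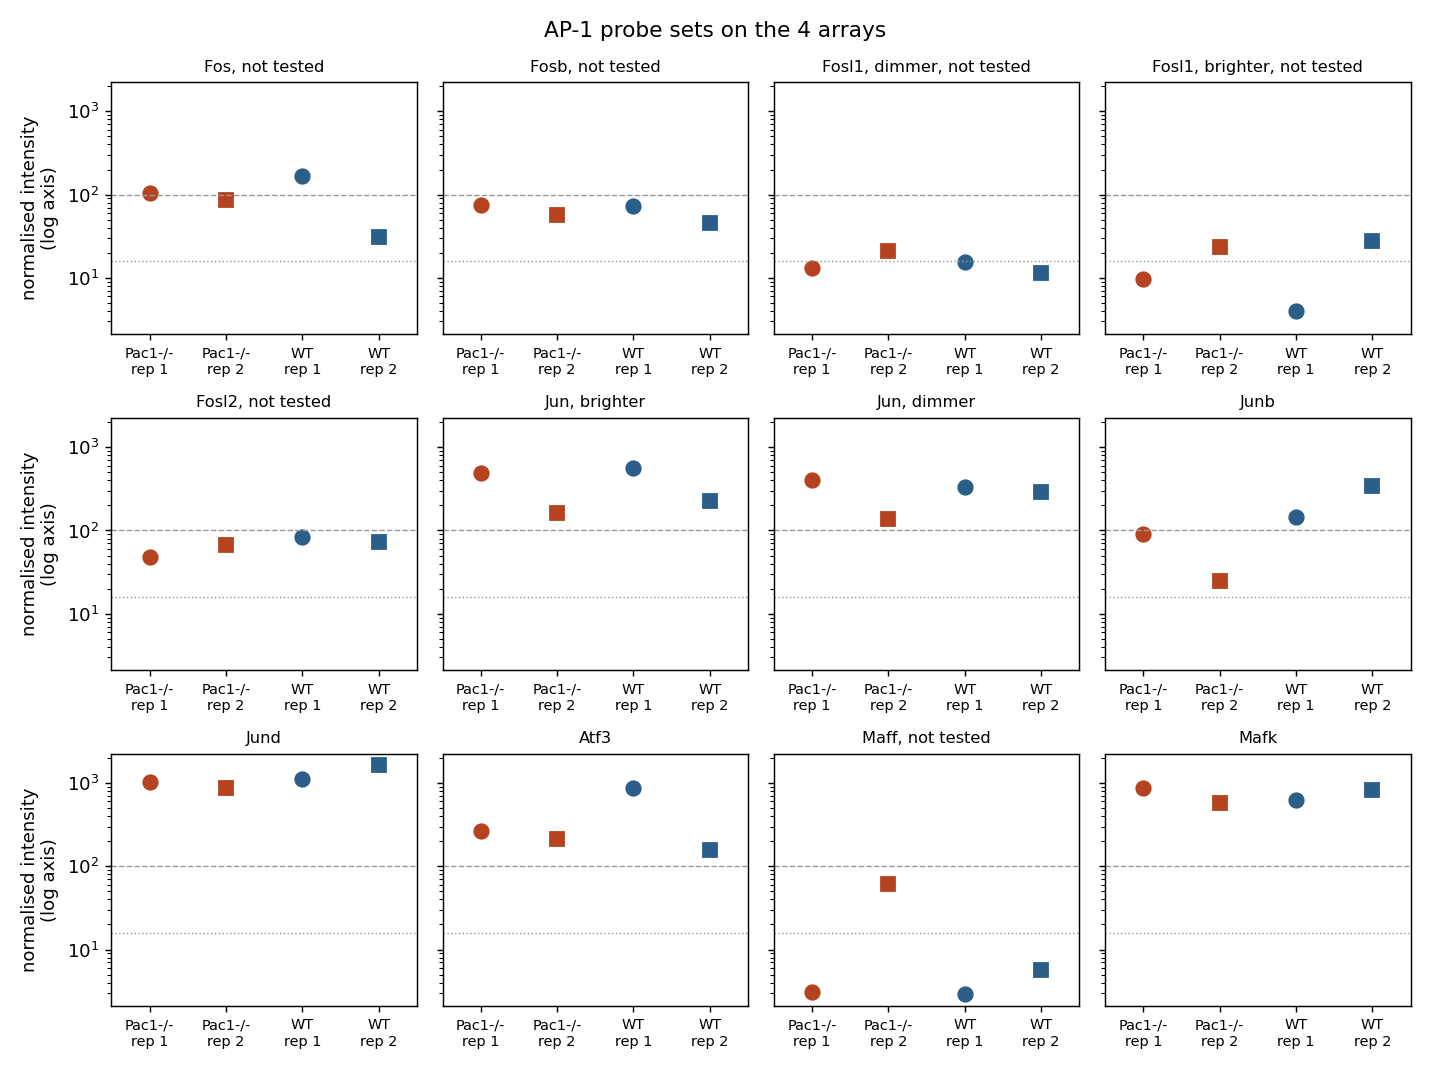
Normalised intensity (log axis) of the 12 AP-1 probe sets on the 4 arrays, Pac1-/- in red and wild-type in blue, circles for replicate 1 and squares for replicate 2. The dashed line is the minimum mean of 100 for a test and the dotted line the floor of 16. Junb runs from 24.95 on Pac1-/- replicate 2 to 338 on wild-type replicate 2, and Atf3 stands at 881 on wild-type replicate 1 against 155 to 262 on the other 3 arrays.

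Intensities are the deposited values after quantile normalisation over the 4 arrays. Probe sets averaging at least 100 over the arrays were tested, which took in 6 of the 12, covering Jun, Junb, Jund, Atf3 and Mafk. The other 6, of Fos, Fosb, Fosl1, Fosl2 and Maff, are described without a test. An intensity depends on the probes as well as the RNA, so levels are set against each other only within a probe set. In bulk RNA, fewer cells with a transcript and less of it per cell cannot be told apart.

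Among the Jun proteins, Junb had 90.5 and 24.95 in Pac1-/- replicates 1 and 2, against 145 and 338 in wild-type replicates 1 and 2. Both Pac1-/- arrays were thus below both wild-type arrays, and the Pac1-/- arrays were below 100. The replicate 1 pair differed by -0.68 and the replicate 2 pair by -3.76 on the log2 scale. The fitted difference of -2.22 had a 95% confidence interval of -4.76 to 0.31, and the limma adjusted p was 0.866. Junb reached the minimum mean of 100 through its wild-type arrays alone, so the filter itself favoured a lower Pac1-/- reading, and without wild-type replicate 2 it was not tested. Without Pac1-/- replicate 2 the difference was -1.21, and with a floor of 64 it was -1.54. The array with the lowest Junb signal was also the one with the GAPDH ratio of 191. The summed signal of the 12 mast cell markers was 58034 and 45786 in Pac1-/- cells against 54138 and 48468 in wild-type cells. Single markers varied: the tryptase Tpsb2 read 6588 and 476 in Pac1-/- cells against 5838 and 7259 in wild-type cells. The receptor gene Kit, by its brightest probe set, read 3672 and 3296 in Pac1-/- cells against 2580.3 and 1521 in wild-type cells. That was a log2 difference of 0.81, but another tested Kit probe set had -2.34, so no direction is read for Kit. The IgE receptor beta chain Ms4a2 read 41.9 and 1502 in Pac1-/- cells against 143 and 3261 in wild-type cells. The integrin Itga2b, on the list of erythroid and megakaryocyte markers, read 1721 and 424 in Pac1-/- cells against 2037 and 3170 in wild-type cells. On that list it was the only 1 of 5 genes on the array to reach 100 on any array. The part of RNA quality or of other cells in the Junb difference was not tested.

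Jund, the subunit that is present before stimulation in most cells, read 1034 and 870.3 in Pac1-/- cells against 1128 and 1625 in wild-type cells. All 4 arrays were well above 100, and the genotypes did not overlap. The difference was larger than its standard error, but its interval included 0, at -0.51 ± 0.40 (SE; 95% confidence interval -1.67 to 0.64; limma adjusted p = 0.866). The pairs stood at -0.13 for replicate 1 and -0.90 for replicate 2. Jund shared its order of arrays with Junb: wild-type replicate 2 was highest, then wild-type replicate 1, Pac1-/- replicate 1 and Pac1-/- replicate 2. The same order was seen on the values as deposited, and 6.38% of all tested probe sets had it.

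Jun, which forms the most active AP-1 dimers with Fos, was measured by a pair of probe sets that only partly followed each other. The brighter had 491 and 161 in Pac1-/- cells and 559.8 and 224 in wild-type cells, for replicates 1 and 2. It was high on both replicate 1 arrays and low on both replicate 2 arrays, and replicate number took 94.2% of its sum of squares. Its genotype difference was -0.33 ± 0.84 (SE; 95% confidence interval -2.73 to 2.06; limma adjusted p = 0.966), and the pairs differed by -0.19 and -0.47. The dimmer had 402.5 and 137 in Pac1-/- cells and 329.7 and 286 in wild-type cells. Here Pac1-/- replicate 2 alone was low, and the replicate pairs had opposite signs, at 0.29 and -1.06. Its genotype difference was -0.38 ± 0.67 (limma adjusted p = 0.932). Without Pac1-/- replicate 2 the differences were 0.44 for the brighter and 0.37 for the dimmer probe set, and without wild-type replicate 1 that of the brighter probe set was 0.33.

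Among the Fos proteins, Fos itself was near the lower limit of a usable signal 2 h after antigen. It had 105 and 86.8 in Pac1-/- cells and 166 and 30.8 in wild-type cells, with a mean of 97.2 that left it just below the minimum for a test. The wild-type arrays were the highest and the lowest of the 4, so the genotypes overlapped completely. The replicate pairs had opposite signs, -0.66 and 1.50 on the log2 scale. Fosb, another early Fos protein, was dimmer and more even, at 75.0 and 57.5 in Pac1-/- cells and 72.3 and 45.8 in wild-type cells.

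Fosl2 (Fra-2), a later Fos protein without a strong activation domain, read 48.6 and 66.1 in Pac1-/- cells and 83.0 and 72.1 in wild-type cells. Both Pac1-/- arrays were below both wild-type arrays, but all 4 readings were below 100 and the nearest of them, 66.1 and 72.1, were close. Fosl1 (Fra-1) had 9.70 and 23.5 in Pac1-/- cells and 4.03 and 28.1 in wild-type cells on its brighter probe set. On the dimmer it had 13.3 and 21.2 in Pac1-/- cells and 15.6 and 11.55 in wild-type cells. With 5 of these 8 readings under the floor of 16, no difference can be read from Fosl1.

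Atf3, a stress- and antigen-inducible member that pairs with Jun proteins and represses many early genes, had 262 and 215 in Pac1-/- cells, against 881 and 155 in wild-type cells. A single array, wild-type replicate 1, was high. The replicate pairs had opposite signs, -1.75 and 0.47, and the genotype difference was -0.64 ± 0.99 (SE; 95% confidence interval -3.47 to 2.19; limma adjusted p = 0.918). Without wild-type replicate 1 it was 0.63. The spread between cultures was uneven, with an SD of log2 intensity of 0.20 in Pac1-/- cells and 1.77 in wild-type cells (n = 2 each). Atf3 had the same order of arrays as Fos, from wild-type replicate 1 down through Pac1-/- replicates 1 and 2 to wild-type replicate 2. That order held on the values as deposited and was seen in 4.44% of all tested probe sets.

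Of the small Maf proteins, Mafk read 872 and 570.5 in Pac1-/- cells and 622 and 823 in wild-type cells. The genotypes overlapped, and the log2 difference of -0.02 ± 0.43 (SE; 95% confidence interval -1.26 to 1.22; limma adjusted p = 0.996) covered sizes above a log2 unit either way. The replicate pairs stood at 0.49 and -0.53, and the difference was 0.27 without Pac1-/- replicate 2 and 0.19 without wild-type replicate 2. Maff, an early-response relative, was below the floor on 3 arrays, at 3.08 on Pac1-/- replicate 1 and 2.90 and 5.75 on the wild-type arrays. It read 61.7 on Pac1-/- replicate 2 alone.

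Set side by side, the 6 tested probe sets had fitted differences below 0, but 4 of them (both of Jun, Jund and Mafk) were above 0 with centring of the arrays on their medians, and Mafk was above 0 on the values as deposited. With that centring all tested probe sets together had a median of 0.66, and 5 of the 6 were below it. Their median log2 difference was -0.45, against 0.06 over all 7770 probe sets, and by pair it was -0.16 for replicate 1 and -0.71 for replicate 2. Without Pac1-/- replicate 2 the median over the 7 then tested was 0.27. None of the 6 passed the limma test at an adjusted p of 0.05, where 0% of all tested probe sets passed. None passed at the unadjusted level of this fit either, where 3.38% of all did. With the replicate block 1 of the 6, Junb, passed at that level, as did 899 of all 7770. In 2 of the 6, Junb and Jund, both Pac1-/- arrays lay below both wild-type arrays, as they did in 13.4% of all tested probe sets, but Junb was among the 6 only through its wild-type signal, so its place in this count and in the median is no support for a direction. In 0 of the 6 they lay above, against 24.3% of all. The median standard error was 0.75 for these probe sets and 0.50 over all those tested.

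**Figure D2:**
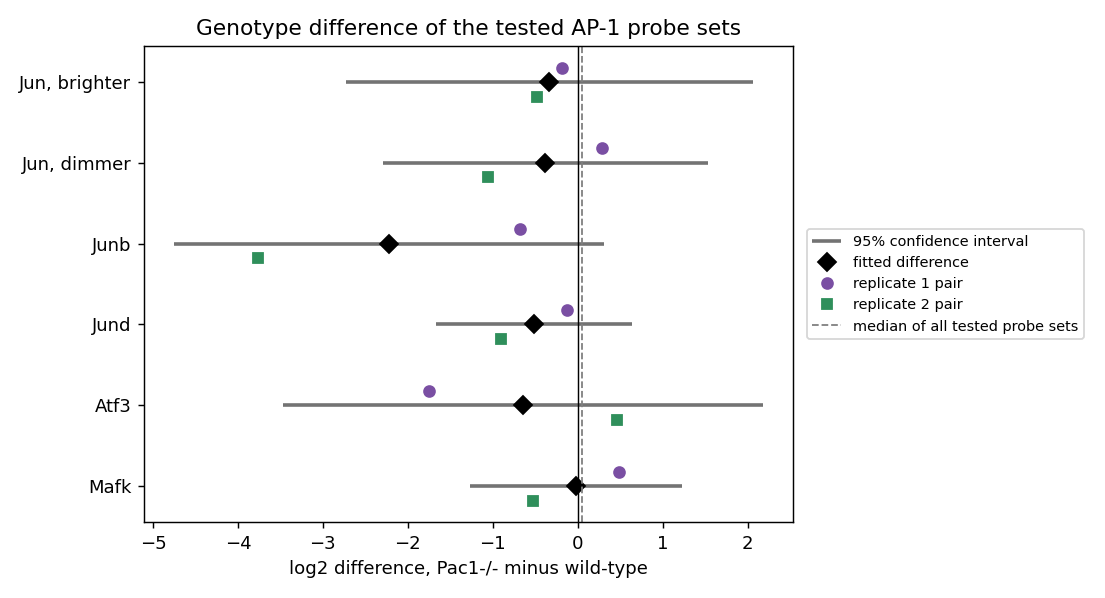
Log2 difference, Pac1-/- minus wild-type, of the 6 tested AP-1 probe sets: diamonds are limma estimates with 95% confidence intervals (n = 2 per genotype), circles the replicate 1 pair and squares the replicate 2 pair. Every interval includes 0; the estimates are below 0 on this scale, but 4 are above 0 after median centring and Mafk also on the values as deposited. The replicate pairs of Atf3, Mafk and the dimmer Jun probe set lie on opposite sides of 0.

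The cultures carried replicate numbers 1 and 2 in both genotypes, and AP-1 transcripts differed between the numbers in varied ways. In Pac1-/- cells all 6 tested probe sets were lower in replicate 2, with a median log2 difference of -1.08, while in wild-type cells 3 were lower and 3 higher, with a median of 0.10. Over all tested probe sets these medians were 0.02 and 0.06. The brighter Jun probe set differed by -1.60 in Pac1-/- and -1.32 in wild-type cells, and Junb by -1.86 and 1.22. Atf3 differed by -0.29 in Pac1-/- and -2.51 in wild-type cells. For 3 of the 6, both of Jun and Atf3, both replicate 1 arrays were above both replicate 2 arrays, as for 18.5% of all tested probe sets. Over the 6 together, genotype took 38.3% of the sum of squares, replicate number 32.5% and the remainder 29.2%. Over all tested probe sets genotype took 17.9% and replicate number 71.9%. Within single probe sets, genotype took 66.7% for Junb, 60.9% for Jund and 0.160% to 11.5% for the others. Since Junb was among the 6 only through its wild-type signal, the joint genotype share is no support for a genotype effect. The differences between replicate numbers within a genotype rest on 1 array each and have no test.

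Other transcripts moved with the replicate numbers too. The summed signal of 10 macrophage markers was 6302 and 961 in Pac1-/- replicates 1 and 2 and 8037 and 666 in wild-type replicates 1 and 2. Most of it came from the lysosomal glycoprotein gene Cd68, which read 5638 and 121 in Pac1-/- and 7512 and 118 in wild-type cells. The lysozyme genes Lyz1 and Lyz2 went with the genotype instead. Lyz1 read 186 and 342 in Pac1-/- against 54.4 and 56.8 in wild-type cells and did not pass limma (adjusted p = 0.866). It reached the minimum mean of 100 only through its Pac1-/- arrays, so no size is given for it. Lyz2 read 122 and 136 in Pac1-/- against 73.3 and 56.8 in wild-type cells, and its mean was too low for a test. Adgre1 (F4/80) was nearly even, at 222 and 217 in Pac1-/- and 248 and 250.5 in wild-type cells, and 5 of the 10 markers were below 100 on every array. The Y-linked gene Eif2s3y read 275 and 2.10 in Pac1-/- cells and 219 and 0.95 in wild-type cells. The X-linked gene Xist went the other way, with 41.7 and 984 in Pac1-/- cells and 47.7 and 2952 in wild-type cells. The replicate numbers thus also differed in sex-linked signals, in both genotypes. The part of these differences in the AP-1 values was not tested.

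**Figure D3:**
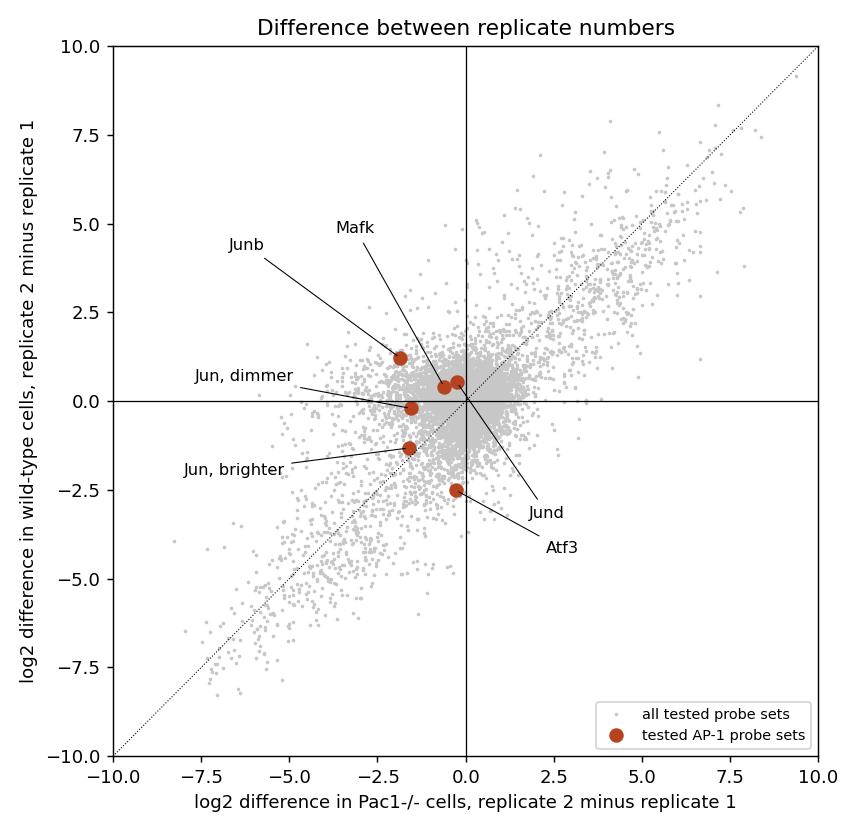
Log2 difference between replicates 2 and 1 in Pac1-/- cells (horizontal) and in wild-type cells (vertical), for 7770 tested probe sets (grey) and the 6 tested AP-1 probe sets (red); the dotted line marks equal differences. The brighter Jun probe set lies near the dotted line at -1.60 and -1.32, whereas Junb is at -1.86 and 1.22 and Atf3 at -0.29 and -2.51.

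Genes that work with AP-1 were taken from fixed lists, each gene by its brightest probe set, and none passed the limma test at either level. Of 15 other dimer partners of the AP-1 and Maf families, 13 were on the array with 1 symbol and 8 were tested, 5 higher and 3 lower in Pac1-/- cells (median log2 difference 0.64, against 0.06 for all tested probe sets). Both Pac1-/- arrays lay above both wild-type arrays for 5 of the 8 and below for 2, against 24.3% above and 13.4% below over all tested probe sets. The Jun partner Atf2 had 403 and 369 in Pac1-/- cells and 244 and 195 in wild-type cells (log2 difference 0.82 ± 0.36, SE), and the AP-1 repressor Jdp2 had 726 and 773 in Pac1-/- cells against 330.1 and 523 in wild-type cells (0.85 ± 0.42). Both were above both wild-type arrays in each Pac1-/- culture. Batf, which pairs with Jun proteins in lymphoid and myeloid cells, had 245 and 101 in Pac1-/- cells against 378 and 326 in wild-type cells (-1.16 ± 0.59). Nfe2l1, a partner of small Maf proteins, had 245 and 160 in Pac1-/- cells against 270 and 544 in wild-type cells (-0.95 ± 0.55). Each of these 4 had a limma adjusted p of 0.866, and their signs held on the values as deposited and with median centring.

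Of 12 regulators of Fos and Jun transcription, 6 were tested, 5 higher and 1 lower (median 0.26), but 4 and 2 on the values as deposited and 6 and 0 with median centring. The ternary complex factor Elk3, which joins serum response factor on the Fos promoter, had 184 and 173 in Pac1-/- cells and 148 and 89.9 in wild-type cells (0.63 ± 0.43, SE). Elk4 had a difference of 0.43 ± 0.60, Mef2a of 0.26 ± 0.38 and Srf of 0.26 ± 0.66. Of 18 kinases that phosphorylate AP-1 proteins or their regulators, 11 were on the array with 1 symbol and 9 were tested, 6 higher and 3 lower (median 0.29), with 7 and 2 after median centring. The ribosomal S6 kinase gene Rps6ka3 had 1098 and 1152 in Pac1-/- cells against 685 and 433 in wild-type cells (1.05 ± 0.42). Mapk14, encoding p38 alpha, had 1730 and 1435 in Pac1-/- cells against 886 and 1220 in wild-type cells (0.60 ± 0.39). Its activator Map2k3 had 2093 and 1229 in Pac1-/- cells against 2533 and 4285 in wild-type cells (-1.04 ± 0.52). The JNK2 gene Mapk9 had a difference of 0.61 ± 0.57. None of these 4 kinases passed limma (adjusted p from 0.866 to 0.876).

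Among 9 genes of AP-1 turnover and co-regulation, 5 were tested, 4 higher and 1 lower (median 0.44), with 5 and 0 after median centring. The deacetylase gene Sirt1, among the 4 higher, had 198 and 183 in Pac1-/- cells and 117 and 68.5 in wild-type cells. It reached the minimum mean of 100 only through its Pac1-/- arrays, so no size is given for it. The ubiquitin ligases Itch and Cop1, which mark Jun proteins for degradation, had differences of 0.43 ± 0.38 and 0.55 ± 0.52 (SE). The Jun coactivator Cops5 had a difference of -0.40 ± 0.38. Of 20 textbook AP-1 targets, 13 were tested, 5 higher and 8 lower (median -0.52), which became 8 and 5 with median centring. By pair the targets' median was -0.47 for replicate 1 and 0.37 for replicate 2. Both Pac1-/- arrays lay above both wild-type arrays for 3 of the 13 targets and below for 2. Over all tested probe sets the shares were 24.3% above and 13.4% below. Plau, above, and Hbegf, below, reached the minimum mean of 100 only through the genotype where each was high. These counts are therefore no support for a direction. The metallothionein genes Mt1 and Mt2, named for their low p, were among those above. Mt1 had 4597 and 4427 in Pac1-/- cells against 2488 and 2698 in wild-type cells (0.80 ± 0.34), and Mt2 had 1546 and 904 in Pac1-/- cells against 625 and 681 in wild-type cells (0.86 ± 0.45). Those of the urokinase system differed in sign. The receptor gene Plaur had 139 and 111 in Pac1-/- cells and 192 and 451 in wild-type cells (-1.25 ± 0.58), while the protease gene Plau had 419 and 56.4 in Pac1-/- cells against 32.9 and 2.30 in wild-type cells. Plau was tested only through its signal on Pac1-/- replicate 1, and wild-type replicate 2 was under the floor of 16, so no size is given for it. Of the genes named from these lists, Nfe2l1, Map2k3 and Plaur had the order of arrays seen in Junb and Jund. That order was seen in 6.38% of all tested probe sets. Naming genes by low p favours orders that separate the genotypes, so no likeness to Junb or Jund is read from it.

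**Figure D4:**
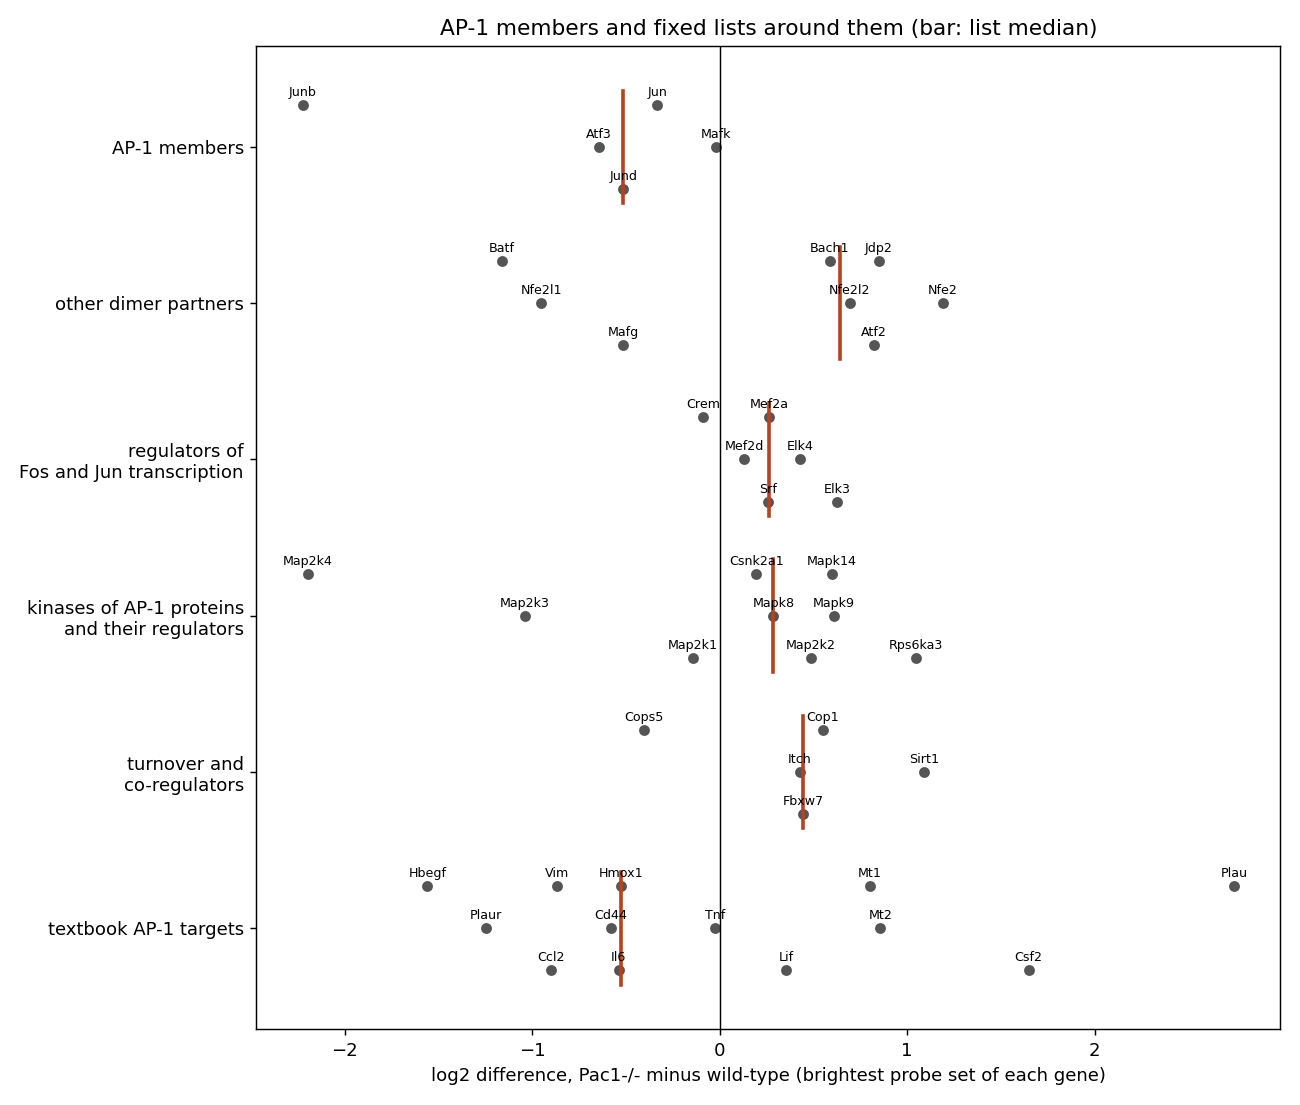
Log2 difference, Pac1-/- minus wild-type, of each tested gene by its brightest probe set, for the AP-1 members and 5 lists around them (points: genes; bars: list medians; vertical offsets only separate labels). The medians of the members (-0.51) and of the textbook targets (-0.52) are below 0 and those of the other 4 lists, 0.26 to 0.64, above; with median centring the members' and targets' medians are 0.19 and 0.24. No gene shown passed the limma test.

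Profiles most like those of the brightest member, Jund, and of the member with the lowest p, Junb, were found by the distance between log2 values centred on each probe set's own mean over the 4 arrays. The nearest to Jund were Prcp (distance 0.02), Faap24 (0.03) and Polr2c (0.09), among 451 tested probe sets within a distance of 0.5. Junb had only 8 within that distance, the nearest being Gna15 (0.10), Gdi2 (0.17) and Ppp4c (0.18). The probe set of Gna15 had 71.2 and 20.3 in Pac1-/- cells and 125 and 270.0 in wild-type cells. With 4 arrays such likeness is a description of these arrays only.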

How the data were processed

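Total RNA of 4 cultures was measured on 1 array each. Per the labels' protocols, RNA was amplified with a kit for small samples before labelling, and more than 98% of the cultured cells carried Kit and the IgE receptor. The deposited values are linear intensity readings of 22690 probe sets, for which the submitters' processing notes name MAS5, and the values share a common trimmed mean (150.06 to 150.08). Per the series' design text the authors also used RMA, whose values were not used here. The 64 controls were left out. The 4 arrays were quantile normalised, floored at 16 and put on the log2 scale. Probe sets averaging at least 100 were fitted with limma 3.58.1 in R 4.3.3 (genotype only, two-sided, Benjamini-Hochberg over all 7770, threshold 0.05), with 2 residual degrees of freedom. No exact permutation test was run, since with 2 arrays per genotype it allows no p below 0.3333. The fit was run on simulated data as a check of the code. Recovery of changes was required only at a spread far below that of these arrays, so the check does not show what the fit can find here. The design text calls the cultures independent, but p-values measure only the spread between these arrays, whose number limits the precision.

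The members and lists were chosen with earlier results of these data known. Named genes are all members, Dusp2, up to 4 tested genes of lowest p per list, and the 3 nearest profiles to the brightest member and to the member of lowest p. Marker genes (Lyz1 and Lyz2 included), Hbegf, Eif2s3y and Xist were chosen after their values were seen. Gene names come from the platform annotation, in which 20380 probe sets have 1 symbol, and listed genes without such a probe set were not analysed here. Promoter sequences are from RefSeq (GRCm38.p6). The alternatives were the values as deposited, median centring, other intensity minimums and floors, a trend in eBayes, the replicate block and leaving out each array. Plots were made in Python 3.11.15 (matplotlib 3.10.9).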

Additional observations from a re-analysis of the deposited data

How the results depend on the processing

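At an adjusted p under 0.05 limma called 0 probe sets, AP-1 or other, in all 13 alternatives. At the unadjusted level 263 probe sets passed, against 1762 with no intensity minimum, 666 with the minimum applied after adjustment, 110 with a minimum of 200 and 899 with the replicate block. With an array left out there were between 87 and 380. Among the AP-1 probe sets 0 passed at that level, against 1 (Junb, -2.22, adjusted p = 0.377) with the replicate block and between 0 and 1 with an array left out: Junb without Pac1-/- replicate 1 and Atf3 without wild-type replicate 2. The replicate numbers are not stated to mark a shared batch; deviations of same-numbered arrays from their genotype mean correlated at r = 0.751 over tested probe sets. Median centring turned the brighter Jun probe set to 0.19, the dimmer to 0.10, Jund to 0.25 and Mafk to 0.70, and Mafk was 0.078 on the values as deposited. Centring shifts all probe sets of an array alike; the cause of the Mafk value was not tested.

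With an array left out, differences ranged from -1.16 to 0.44 for the brighter Jun probe set, -1.18 to 0.37 for the dimmer, -1.92 to 0.63 for Atf3, -0.33 to 0.27 for Mafk, -0.79 to -0.26 for Jund and -3.10 to -1.21 for Junb. Junb fell under the minimum without wild-type replicate 2 or with a minimum of 200, so it has no value there. Such fits take the spread of the lone array from the other genotype and set it against both replicate numbers. The AP-1 median, -0.45, ranged from -0.98 to 0.27 in these fits. Of 84 single AP-1 values under alternatives, 72 kept their direction or moved by less than the spread between replicates, 11 tested ones turned, and Fos, 0.42 and too dim for a test with all arrays, turned too, to -0.82 without wild-type replicate 2. Readings below 100 limit Fos, Fosb, Fosl1, Fosl2 and Maff.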
